A study of Mus musculus with 4 samples.

Results

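The expression of 10 genes that govern the pausing and elongation of RNA polymerase II was examined in Ter119+ cells of mouse bone marrow. They were taken by gene symbol from the deposited count tables, and all 10 were found among 56691 genes listed: Cdk9, Ccnt1, Ccnt2, Hexim1, Larp7, Supt5, Supt6, Nelfa, Nelfe and Aff4. Each of them passed the filter on low counts, as did 13052 genes in all. The study compared 2 libraries labelled Med16 KO with 2 labelled Med16 fl/fl (homozygous floxed Med16), all from Ter119+ bone marrow cells with an erythroid stage label and a time label of 3 weeks, sequenced as poly(A) RNA. Ter119 is an antigen of red cells and their late precursors, and Med16 encodes a subunit of the tail of Mediator. The sources used here do not give the Cre driver, the deleted exons, the age of the mice, what the time is counted from, or whether each library is a different mouse. If they are not, the p values below describe only technical spread among libraries.

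After initiation, RNA polymerase II often halts a short way into a gene, held there by the factors DSIF and NELF. P-TEFb, which is the kinase CDK9 bound to cyclin T1 or T2, phosphorylates DSIF, NELF and the polymerase tail and so releases the polymerase, while the 7SK RNA particle with HEXIM1 and LARP7 keeps P-TEFb inactive. In zebrafish, release of paused polymerase at blood genes has been tied to the choice of the erythroid fate.

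The libraries held 6749196 to 7216333 counts assigned to genes. The genotypes stood apart in the number of genes with a count, 16892 and 16479 in KO and 18947 and 19016 in fl/fl, and in reads not aligned, 2.69 and 3.27% in KO and 1.05 and 0.826% in fl/fl. The part of these differences in the results below was not tested. Med16 itself, the targeted gene, had 16 and 30 counts in the KO libraries and 164 and 127 counts in the fl/fl libraries (log2 fold change -2.64, SE 0.34). Its adjusted p was 4.6e-05 in edgeR's quasi-likelihood test, with adjustment by Benjamini and Hochberg over all genes, as for every adjusted p below. The genes used as erythroid markers summed to 163976 and 168107 CPM (counts scaled to library size and by TMM factors) in KO and to 172040 and 165580 CPM in fl/fl, with 8 of 10 called lower and 2 higher. Most of these sums came from the globin genes Hbb-bs and Hba-a1, so they say little of the other markers. Hbb-bs, called lower, had 64586 CPM in KO and 72711 CPM in fl/fl. Hba-a1, called higher, had 76071 CPM in KO and 65782 CPM in fl/fl. The genotypes also differed in markers of cells outside the erythroid line. All 10 neutrophil markers were called higher, and they summed to 19219 and 19606 CPM in KO and to 13675 and 13497 CPM in fl/fl. Of 8 megakaryocyte markers 6 were called higher (224 and 219 CPM in KO, 106 and 95.3 CPM in fl/fl), and Gp1bb was at 0 in every library. Monocyte and macrophage markers, with 3 of 8 higher and 2 lower, summed to 656 and 657 CPM in KO and to 541 and 553 CPM in fl/fl, and stromal and endothelial markers, with 2 of 6 higher, to 222 and 276 CPM in KO and to 134 and 138 CPM in fl/fl. The summed B cell markers, with 1 of 6 called higher and 0 lower, were 212 and 225 CPM in KO and 206 and 224 CPM in fl/fl. Those of T and NK cells, with 4 of 6 tested and 0 called, were 49.6 and 48.4 CPM in KO and 41.4 and 39.2 CPM in fl/fl. Most of that sum was Nkg7, at 37.3 CPM in KO and 29.2 CPM in fl/fl. The part of these marker levels in the results below was not tested, and in such bulk RNA fewer cells of a type and less RNA per cell cannot be told apart.

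The 2 members called were the genes of the cyclin subunits of P-TEFb. Ccnt1 and Ccnt2 both fell, to 0.713 and 0.706 times their fl/fl level, while the gene of their partner kinase, Cdk9, had a fold of 1.14 that was not called. None of the 10 genes was called higher (edgeR quasi-likelihood test; none had a positive change at an unadjusted p under 0.05, and DESeq2 also called none higher). The 2 of 10 called stand beside 18.4% of all 13052 genes tested, and the 2 called lower beside 9.89%, with 8.5% called higher. The median log2 fold change of the members was -0.02, and that of all genes tested 0.02. With library size as the only scaling the share of calls that were higher over all genes was 56.4% in place of 46.2%, with Ccnt1 and Ccnt2 again the called members.

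**Figure D1:**
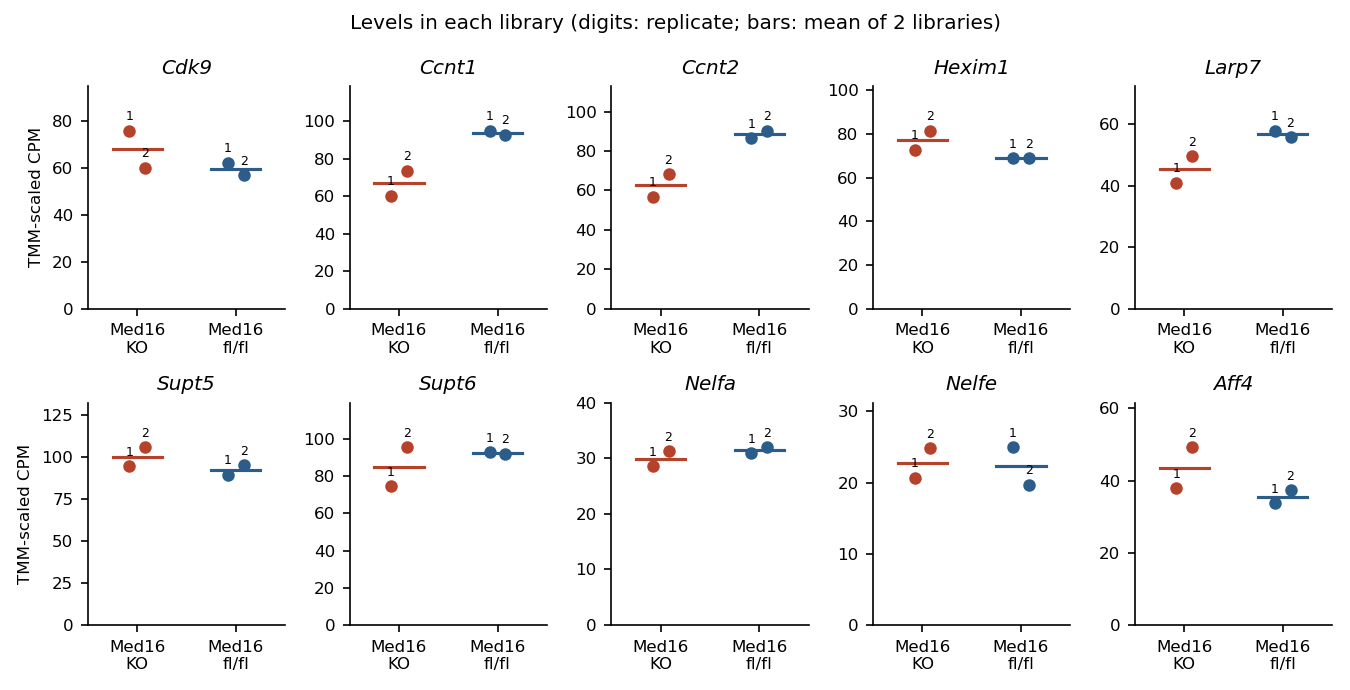
Level of each of the 10 genes in TMM-scaled CPM, by library, with Med16 KO at the left and Med16 fl/fl at the right of each panel. Points are libraries marked by replicate number, and bars are the mean of 2 libraries. Both KO points of Ccnt1, Ccnt2 and Larp7 lie below both fl/fl points.

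Ccnt1 (ENSMUSG00000011960.13), which encodes cyclin T1, had 60.2 and 73.6 CPM in the KO libraries, against 95 and 92.7 CPM in the fl/fl libraries. Both KO libraries lay below both fl/fl libraries, and KO library 1 was the lowest. The means were 66.9 ± 9.49 CPM in KO and 93.8 ± 1.64 CPM in fl/fl (SD, n = 2 each). The log2 fold change was -0.49 (SE 0.12, 95% interval -0.73 to -0.24), with an edgeR quasi-likelihood adjusted p = 0.00717. The antisense gene 9330020H09Rik, which had 48 and 53 counts in KO and 54 and 46 counts in fl/fl, overlaps 7.59% of the exon length of Ccnt1, and without a stated strand setting their reads in the overlap cannot be told apart.

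Ccnt2 (ENSMUSG00000026349.15), the gene of cyclin T2, had 56.9 and 68.4 CPM in the KO libraries, against 86.7 and 90.5 CPM in the fl/fl libraries. As for Ccnt1, the genotypes did not overlap and KO library 1 was the lowest. Its log2 fold change of -0.50 (SE 0.12, 95% interval -0.75 to -0.25, edgeR adjusted p = 0.00647) was nearly that of Ccnt1. The ratio of Ccnt1 to Ccnt2 counts was 1.06 and 1.08 in the KO libraries and 1.1 and 1.02 in the fl/fl libraries, so both KO ratios lay between the fl/fl ratios. Each call ended without 1 fl/fl library while the fold change stayed close: Ccnt1 was at -0.48 without fl/fl library 1 (adjusted p = 0.058) and Ccnt2 at -0.48 without fl/fl library 2 (adjusted p = 0.0813). Those fits called 1275 and 1158 genes in all, against 2400 with every library. The call of Ccnt2 also ended with an offset for GC content (log2 fold change -0.33, adjusted p = 0.0754), and both ended with an assumed biological coefficient of variation of 0.2.

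Cdk9 (ENSMUSG00000009555.17), the kinase, had 75.8 and 60.0 CPM in KO, against 62.0 and 56.7 CPM in fl/fl. KO library 1 was the highest, while KO library 2 lay between the fl/fl libraries. The log2 fold change of 0.19 (SE 0.13, 95% interval -0.09 to 0.48) was not past the threshold (edgeR adjusted p = 0.354). Leaving out KO library 2 made it a call (0.34, adjusted p = 0.0224), and leaving out KO library 1 brought it to 0.00. A ratio of counts within a library does not depend on the scaling of libraries, but an effect of GC content need not cancel in it. Transcript GC content was 45.8% for Ccnt1, 42.5% for Ccnt2 and 55.2% for Cdk9. The summed counts of Ccnt1 and Ccnt2 were 1.55 and 2.37 times those of Cdk9 in KO, against 2.93 and 3.23 times in fl/fl. This ratio was chosen after the values were seen. The genotypes did not overlap, and 2 libraries against 2 cannot reach p < 0.05 in an exact permutation test, which gave its lowest possible two-sided p of 0.333.

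The promoters of these P-TEFb genes and of Hexim1 are shown because the 2 cyclin genes both fell and the genes of their kinase and its inhibitor were not called. Each run is the 250 bases before the start of the gene in RefSeq, build GRCm38.p6, 5′ to 3′ on the strand of the gene: chr15:98567737-98567986 on the minus strand for Ccnt1, chr1:127773914-127774163 on the plus strand for Ccnt2, chr2:32712785-32713034 on the minus strand for Cdk9 and chr11:103116075-103116324 on the plus strand for Hexim1. Capitals mark matches, on either strand, to any of 4 short motifs, and neighbouring matches may run together or overlap. The CCAAT box was searched under its own name as letters. The GC box was searched as GGGCGG on both strands. The motif bound by ETS factors was searched in the form CCGGAAG on both strands. The core bound by the factor NRF1 was searched in the form GCATGCGC on both strands.
Ccnt1: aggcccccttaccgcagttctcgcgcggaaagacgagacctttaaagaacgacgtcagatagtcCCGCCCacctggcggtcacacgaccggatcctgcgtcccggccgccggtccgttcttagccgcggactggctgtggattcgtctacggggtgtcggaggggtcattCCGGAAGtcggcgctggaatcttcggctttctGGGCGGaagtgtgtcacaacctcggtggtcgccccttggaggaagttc
Ccnt2: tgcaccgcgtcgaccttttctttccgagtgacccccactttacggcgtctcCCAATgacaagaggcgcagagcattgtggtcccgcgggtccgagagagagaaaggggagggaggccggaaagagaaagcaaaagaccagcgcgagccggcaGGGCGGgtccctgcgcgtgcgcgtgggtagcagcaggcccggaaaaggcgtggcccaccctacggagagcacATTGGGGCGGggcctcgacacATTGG
Cdk9: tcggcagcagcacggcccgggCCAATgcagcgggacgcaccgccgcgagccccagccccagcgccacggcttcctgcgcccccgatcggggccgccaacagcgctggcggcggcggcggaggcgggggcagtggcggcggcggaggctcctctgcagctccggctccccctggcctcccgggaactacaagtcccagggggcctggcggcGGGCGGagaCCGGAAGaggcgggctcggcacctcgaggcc
Hexim1: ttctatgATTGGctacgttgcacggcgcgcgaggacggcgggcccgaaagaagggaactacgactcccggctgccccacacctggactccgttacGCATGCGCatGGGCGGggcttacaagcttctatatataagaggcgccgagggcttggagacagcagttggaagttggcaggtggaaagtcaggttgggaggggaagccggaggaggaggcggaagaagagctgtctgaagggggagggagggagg

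Of the 10 genes, 9 had such a window in the RefSeq table. A GC box was present in 7 of those 9 windows, against 32.7% of 32851 windows of the same length, and a CCAAT box in 4 of 9, against 33.8%. Ccnt2 held 3 CCAAT and 2 GC box matches, Ccnt1 held 2 GC box matches and 1 ETS match, and Cdk9 held 1 match of each of the 3. The ETS letters were found in 2 of the 9 windows, Ccnt1 and Cdk9, and in 6.91% of all windows. The NRF1 core was found in that of Hexim1 alone, and in 2.26% of all windows. For the TATA box only the exact letters TATAAA were searched, so the run tatatataag in the Hexim1 window was not counted. The letters TATAAA, present in 12.4% of all windows, were in none of the 9. Nor were those of the motif of erythroid GATA factors, searched in the form AGATAA and present in 9.99% of all windows, or those of the AP-1 motif, searched as TGANTCA and present in 6.75%. The E-box, searched as CACGTG and present in 6.02% of all windows, was in that of Aff4. The 2 cyclin genes shared the GC box, which Cdk9 and Hexim1 held too. GC content was 62.8% for Ccnt1, 64.8% for Ccnt2, 78.8% for Cdk9 and 61.2% for Hexim1, against a median of 52.4% over all windows. Over the 9 windows it ran from 56.8% for Supt6 to 79.2% for Aff4. The windows set beside them were not matched for GC content, so the shares of motifs rich in G and C, such as the GC box, are not like for like.

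The inhibitor side of P-TEFb showed no called change. Hexim1 (ENSMUSG00000048878.7), whose protein binds 7SK RNA and blocks the CDK9 kinase, had 72.8 and 81.6 CPM in KO, against 68.9 and 68.8 CPM in fl/fl. Both KO libraries were above both fl/fl libraries, which were nearly identical to each other. The log2 fold change was 0.16 (SE 0.11, 95% interval -0.07 to 0.40, edgeR adjusted p = 0.354), and the gene was called in none of 12 alternatives. The ratio of Hexim1 to Cdk9 counts was 0.961 and 1.36 in the KO libraries, on either side of 1.11 and 1.21 in the fl/fl libraries (exact permutation test, two-sided p = 1.0, smallest possible 0.333).

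Larp7 (ENSMUSG00000027968.12) encodes the La-related protein that binds the end of 7SK RNA and stabilises it. It had 41.0 and 49.6 CPM in KO, against 58.0 and 55.8 CPM in fl/fl, so both KO libraries lay below both fl/fl libraries. Its log2 fold change of -0.33 (SE 0.14, 95% interval -0.62 to -0.04) had an unadjusted p of 0.0297 and an edgeR adjusted p = 0.115, which is not a call. Larp7 was called lower without KO library 2 (-0.49, adjusted p = 0.00377) and with a transcript length offset (-0.41, adjusted p = 0.0483). Hexim1 had 1.77 and 1.64 times the counts of Larp7 in the KO libraries, against 1.19 and 1.23 times in the fl/fl libraries, and the exact permutation test gave its lowest possible two-sided p of 0.333. This ratio, too, was chosen after the values were seen. The 7SK RNA that both proteins bind is not polyadenylated, and the gene Rn7sk had 0 and 7 counts in KO and 3 and 3 counts in fl/fl, too few to compare.

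None of the pausing factors among the 10 genes was called. Supt5 (ENSMUSG00000003435.10), the SPT5 subunit of DSIF, had 94.7 and 106 CPM in KO and 89.6 and 95.4 CPM in fl/fl. The genotypes overlapped, and the log2 fold change was 0.12 (SE 0.10, 95% interval -0.10 to 0.33, edgeR adjusted p = 0.479). Nelfa (ENSMUSG00000029111.8), the NELF subunit that contacts the polymerase, had 28.6 and 31.2 CPM in KO and 30.9 and 32.0 CPM in fl/fl. Its log2 fold change was -0.07 with a 95% interval of -0.43 to 0.29. The ratio of Nelfa to Supt5 counts was 0.302 and 0.295 in KO and 0.345 and 0.335 in fl/fl. This ratio was not planned beforehand, and the exact permutation test gave its lowest possible two-sided p of 0.333. Nelfe (ENSMUSG00000024369.17), the RNA-binding NELF subunit, had 20.7 and 24.8 CPM in KO and 25 and 19.7 CPM in fl/fl. It was the least abundant member in counts, its fl/fl libraries were further apart than its KO libraries, and its log2 fold change of 0.03 had the widest interval of the 10, -0.42 to 0.47. Supt5 shares 7.51% of its exon length with the antisense gene Gm44709, and Nelfa shares 1.52% with Nsd2 on the opposite strand, which had 1319 and 1182 counts in KO and 1833 and 1830 counts in fl/fl.

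Supt6 (ENSMUSG00000002052.7), a histone chaperone that travels with elongating polymerase, had 74.6 and 95.6 CPM in KO, against 92.9 and 92.0 CPM in fl/fl. KO library 1 was lower and KO library 2 higher than both fl/fl libraries. Supt6 shares 3.41% of its exon length with Sdf2 on the opposite strand. Sdf2 had 148 and 122 counts in KO and 153 and 135 counts in fl/fl. The log2 fold change of Supt6 was -0.12 (SE 0.12, 95% interval -0.37 to 0.13, edgeR adjusted p = 0.544). Without KO library 2 it was called lower (-0.32, adjusted p = 0.0158), and without KO library 1 it was 0.04. Aff4 (ENSMUSG00000049470.14), the scaffold of the super elongation complex that carries P-TEFb to the polymerase, had 37.9 and 49.3 CPM in KO, against 33.7 and 37.4 CPM in fl/fl. Both KO libraries were above both fl/fl libraries, KO library 1 only just so. Its log2 fold change of 0.29 (SE 0.16, 95% interval -0.06 to 0.64, edgeR adjusted p = 0.255) was the highest of the 10, and it was called higher without KO library 1 (0.46, adjusted p = 0.0136).

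**Figure D2:**
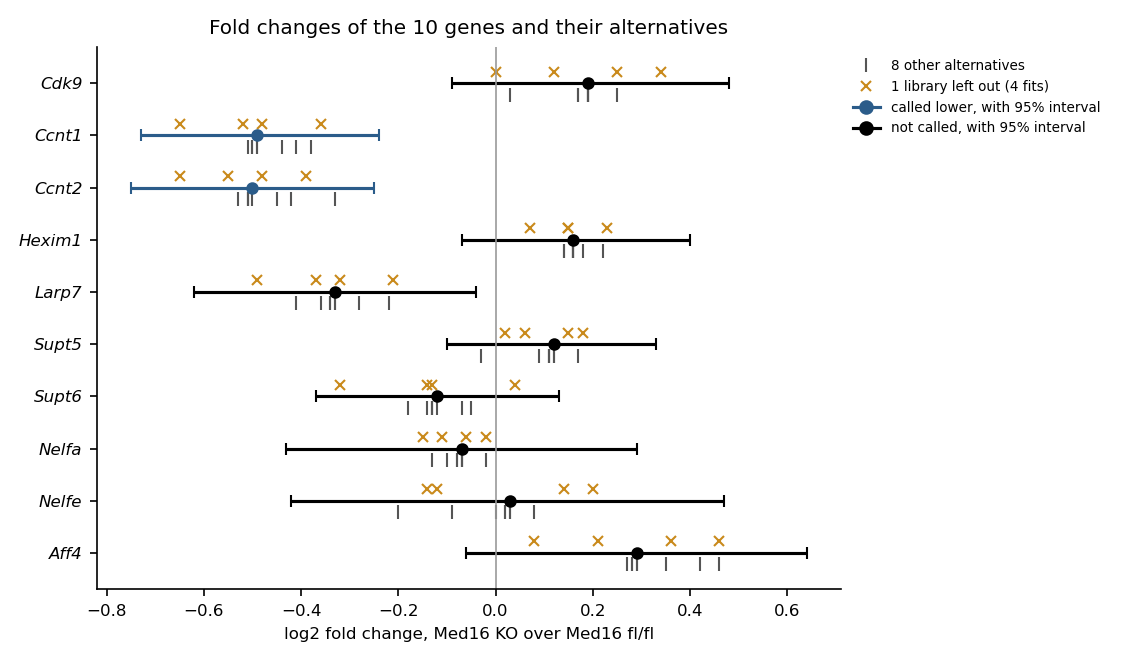
Log2 fold change of Med16 KO over Med16 fl/fl for the 10 genes, as points with 95% intervals, with crosses for the 4 fits that leave out 1 library and ticks for 8 other alternatives. The intervals of Ccnt1, Ccnt2 and Larp7 lie below 0, of which the first 2 were called, and the values of Ccnt1 and Ccnt2 stay between -0.65 and -0.33 in all alternatives.

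Counting libraries alone, both KO values lay below both fl/fl values for 3 of the 10 genes (Ccnt1, Ccnt2 and Larp7), beside 28.2% of all genes tested, and above them for 2 (Hexim1 and Aff4), beside 29.4%. The other 5 overlapped. The KO libraries were further apart than the fl/fl libraries. The median absolute log2 difference between replicates was 0.26 over the members in KO and 0.06 in fl/fl, against 0.18 in KO and 0.11 in fl/fl over the genes tested whose mean CPM lay within the range of the members. KO library 1 was lower than KO library 2 for 9 of the 10 genes, all but Cdk9, while this held for 50.3% of all genes tested. The gaps ran from -0.37 for Aff4 to 0.33 for Cdk9 on the log2 scale.

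Levels were also scaled per kilobase of exon, merged over isoforms, so that genes can be set beside each other. By this length, Hexim1 had the highest level of the 10 in KO and Larp7 in fl/fl. In CPM per kb, Larp7 had 19.1 ± 2.56 in KO and 24.1 ± 0.659 in fl/fl, and Hexim1 had 22.1 ± 1.77 in KO and 19.7 ± 0.0127 in fl/fl (SD, n = 2 each). In fl/fl the order was Larp7, Hexim1, Supt5 (16.1), Supt6 (13.0), Cdk9 (12.9), Nelfe (10.8), Ccnt1 (10.2), Nelfa (7.96), Ccnt2 (7.18) and Aff4 (2.65). Only Supt6 with Cdk9 and Nelfe with Ccnt1 overlapped as neighbours there. In KO the order was Hexim1, Larp7, Supt5 (17.4), Cdk9 (14.7), Supt6 (12.0), Nelfe (11), Nelfa (7.58), Ccnt1 (7.31), Ccnt2 (5.07) and Aff4 (3.24). There the neighbours overlapped from Hexim1 down to Nelfe, as did Nelfa with Ccnt1. Per length, Cdk9 was thus above each of its cyclins in both genotypes, by 14.7 against 7.31 and 5.07 CPM per kb in KO and by 12.9 against 10.2 and 7.18 CPM per kb in fl/fl. Exon lengths came from an annotation of an older build and merge all isoforms, which lowers the level per length of genes with many of them. Supt5 had 5.76 kb of merged exon and a longest transcript of 3.75 kb, Larp7 2.37 and 2.12 kb, and Hexim1 3.5 kb by both. The order above thus depends on the length used. By the longest transcript Supt5 would lead in KO, while Larp7 would stay first in fl/fl.

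**Figure D3:**
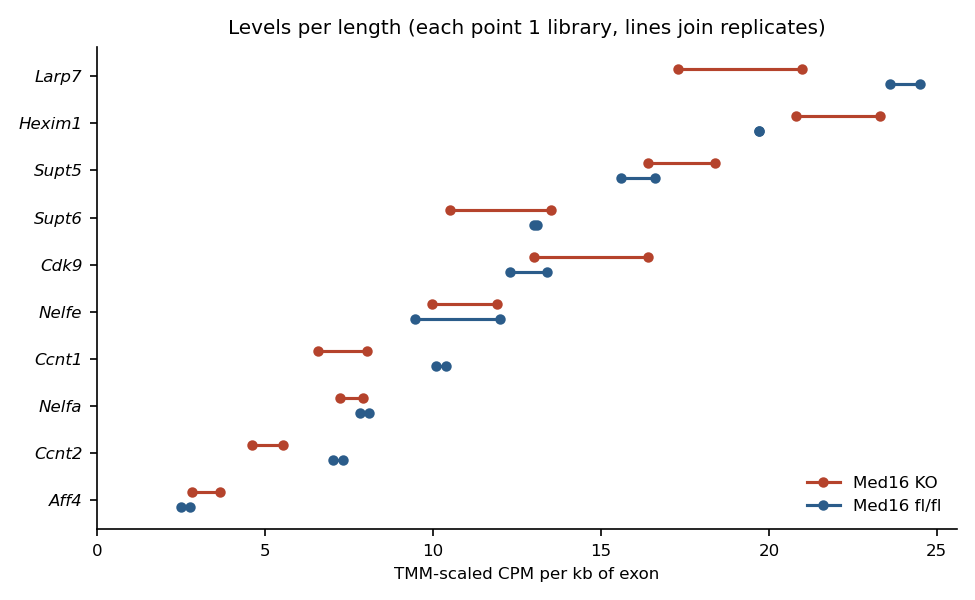
Level per length of the 10 genes in TMM-scaled CPM per kb of exon, with Med16 KO above Med16 fl/fl for each gene. Points are libraries and lines join the 2 replicates. By this length, which merges all isoforms, Larp7 and Hexim1 have the highest means, and Aff4 the lowest, at 3.24 in KO and 2.65 in fl/fl.

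The members differ in base composition, and the fold changes moved with a correction for it. The GC content of their transcripts ran from 42.5% for Ccnt2 to 57.4% for Nelfe, around a median of 50.0% over the genes tested. Ccnt2, Aff4 (43.3%), Larp7 (45.4%) and Ccnt1 (45.8%) were the 4 lowest. With an offset for GC content, the log2 fold change of Ccnt1 was -0.38 and stayed called (adjusted p = 0.0352), that of Ccnt2 lost its call, and that of Cdk9 was 0.03. Aff4 was at 0.46 (adjusted p = 0.0799) and Larp7 at -0.22, so these 4 genes of low GC content all had more positive values with the offset, and Cdk9 a less positive one.

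The wider pathway was read from 9 lists of genes beyond the 10 members. All but the last hold genes with known roles in pausing and elongation. The last holds genes known for paused polymerase near their starts, and 5 of its 11 genes tested were called higher and 4 lower. The 87 genes tested in all 9 lists had a median change of -0.04 on the log2 scale. Of them, 10 were called higher and 16 lower, beside 8.5% called higher and 9.89% lower of all genes tested. Leaving out fl/fl library 1 reduced these to 6 higher and 10 lower, and leaving out fl/fl library 2 to 6 and 9. Leaving out either KO library gave 12 higher and 23 lower. Each value that follows is edgeR's, in CPM with SD over 2 libraries, and adjusted over all genes tested.

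Among 9 genes that bind or modify P-TEFb or the 7SK particle, 1 was lower and none higher (none at an unadjusted p under 0.05 or by DESeq2). This was Hnrnpa2b1, whose protein binds 7SK RNA that has released P-TEFb, at 828 ± 0.953 CPM in KO and 1008 ± 13.1 CPM in fl/fl (log2 fold change -0.28, SE 0.04, adjusted p = 0.000125). Its call ended with a GC content offset, at -0.10, under which the list held 1 other gene called lower and 1 called higher. Hexim2, the paralog of Hexim1, was scarce, with 17 and 31 counts in KO and 37 and 52 counts in fl/fl, and was called lower only without KO library 2 (log2 fold change -1.43, against -0.88 over all libraries). Ddx21, a helicase that releases P-TEFb from 7SK, had 89.8 ± 2.44 CPM in KO and 78.9 ± 0.379 CPM in fl/fl, which was not called (adjusted p = 0.233).

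None of 5 further genes of NELF, DSIF and their partners was called in either direction (none at an unadjusted p under 0.05, and none by DESeq2). Their median log2 fold change was -0.00. Nelfcd, the gene of the NELF-C/D subunit, had 102 ± 3.14 CPM in KO and 104 ± 2.68 CPM in fl/fl. Supt4a, the SPT4 partner of Supt5 in DSIF, had 80.5 ± 13.1 CPM in KO and 94.6 ± 0.112 CPM in fl/fl (log2 fold change -0.23, adjusted p = 0.189), and was called lower without KO library 1 (-0.42). Trim33, whose zebrafish form acts on elongation at erythroid genes, had 62.9 ± 6.93 CPM in KO and 57.5 ± 12.2 CPM in fl/fl.

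In the super elongation complex 1 of 7 genes rose and 2 fell. Aff1, the alternative scaffold to Aff4, fell to 210 ± 13.2 CPM in KO, against 287 ± 2.44 CPM in fl/fl (log2 fold change -0.45, SE 0.07, adjusted p = 0.000168). Aff4 was at 0.29 on the same scale with no call. Eaf1, a partner of ELL proteins, fell by 0.35 (adjusted p = 0.0246), and Ell, which speeds the polymerase, rose to 28.4 ± 2.21 CPM in KO, against 17.8 ± 2.43 CPM in fl/fl (0.68, SE 0.20, adjusted p = 0.0278). The calls of Eaf1 and Ell ended without either fl/fl library, that of Ell also by DESeq2 and with a GC content offset (0.48), and that of Eaf1 when libraries were scaled by their size alone (-0.30). Med26, the Mediator subunit that can bind this complex, was at 0.20 with no call; it was named after its value was seen.

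Of 6 PAF1 complex genes, 1 was lower and none higher (none at an unadjusted p under 0.05 or by DESeq2). Wdr61, which the complex shares with an RNA decay machine, fell to 83.6 ± 3.74 CPM in KO, against 107 ± 0.712 CPM in fl/fl (log2 fold change -0.36, SE 0.10, adjusted p = 0.0148). That call ended without either fl/fl library and with a GC content offset (-0.29). Ctr9, the scaffold of the complex, had 24.4 and 42.7 CPM in KO and 41.1 and 38.5 CPM in fl/fl, so KO library 1 alone was low, and Cdc73 had 36.3 ± 2.41 CPM in KO and 40.0 ± 0.0722 CPM in fl/fl with no call. Without KO library 1 or 2 the list had 2 lower.

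Genes of histone chaperones and chromatin enzymes that act in elongation were lower for 3 of 9 and higher for none (none at an unadjusted p under 0.05 or by DESeq2), and their median log2 fold change was -0.31. Supt16, the large subunit of the chaperone FACT, fell to 156 ± 27.1 CPM in KO, against 212 ± 1.87 CPM in fl/fl (-0.44, SE 0.10, adjusted p = 0.00407). Its partner Ssrp1, the most abundant of the list, was at -0.17 with no call, and was called lower without KO library 1 (-0.22). Asf1b, a chaperone of dividing cells, fell by 0.31, and the remodeller gene Chd1 fell by 0.44. Both calls ended when either fl/fl library was left out, and that of Chd1 also with a GC content offset (-0.31, adjusted p = 0.0905). With that offset the list had 2 lower and 1 higher. Without KO library 1 the list had 5 lower, and without either fl/fl library it had 1.

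Among 9 genes of factors that stimulate elongation, 1 rose and 1 fell. Elob, elongin B, which also serves ubiquitin ligases, rose to 129 ± 9.19 CPM in KO, against 91.5 ± 2.29 CPM in fl/fl (log2 fold change 0.49, SE 0.09, adjusted p = 0.00143). Tcea1, the TFIIS protein that rescues backtracked polymerase, fell by 0.39 (SE 0.11, adjusted p = 0.0237), a call that ended without either fl/fl library, with a GC content offset (-0.18) and under scaling by library size alone (-0.33). Eloa, the elongin A subunit, was at -0.26 with no call, and was called lower without either KO library.

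Of 17 other genes for kinases, phosphatases and readers of the polymerase tail, 3 were lower and 3 higher. The elongation kinase genes Cdk12 and Cdk13 both fell, Cdk12 to 60.1 ± 2.59 CPM in KO, against 92.5 ± 3.49 CPM in fl/fl (log2 fold change -0.62, SE 0.11, adjusted p = 0.000672), and Cdk13 to 60.0 ± 3.91 CPM in KO, against 86.1 ± 0.0556 CPM in fl/fl (-0.52, SE 0.11, adjusted p = 0.00337). Their cyclin gene, Ccnk, had 47.1 ± 7.07 CPM in KO and 49.9 ± 5.29 CPM in fl/fl, with no call (log2 fold change -0.08); it was named after its value was seen. For P-TEFb the cyclin genes were called and the kinase gene was not. The difference between these patterns was not tested. Rprd1b, which binds the phosphorylated tail, fell by 0.42 (SE 0.10), a call that ended without fl/fl library 2. Ctdsp1, Ctdsp2 and Pcif1, named after their values were seen, rose, with log2 fold changes of 0.36, 0.38 and 0.31. The first 2 encode tail phosphatases and the third a cap methyltransferase that binds the tail. None of the 17 was called higher with a GC content offset or without either fl/fl library, and 5 were without KO library 2. Ppp1cc, the most abundant, was at 0.04.

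Integrator, a complex that ends transcription of paused polymerase early, had 1 of 14 genes lower and none higher (none at an unadjusted p under 0.05 or by DESeq2). Ints8, a subunit of its phosphatase module, fell to 59.1 ± 4.54 CPM in KO, against 85.9 ± 3.09 CPM in fl/fl (log2 fold change -0.54, SE 0.11, adjusted p = 0.00301). That call ended without fl/fl library 1, at an adjusted p of 0.0543. Ints6 and Ints2 were both at -0.48 with no call, though without KO library 2 both were called lower (-0.61 and -0.53), and Ints6 also with no filter and with a replicate block (adjusted p = 0.0459 and 0.0476), and the most abundant subunit gene, Ints1, was at 0.16. Without KO library 1 or 2 the list had 3 lower.

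Genes known for paused polymerase near their starts were called in both directions. All genes tested, of which 8.5% were called higher and 9.89% lower, were not matched to them for abundance. Of 11 tested, 5 rose and 4 fell, counts that were 5 and 3 to 4 in the fits without 1 library. The 4 genes that fell encode heat shock proteins. Hspa1b, an inducible HSP70 gene, had 7 and 15 counts in KO and 364 and 327 counts in fl/fl, or 1.59 ± 0.863 CPM in KO and 49.3 ± 2.90 CPM in fl/fl (log2 fold change -4.95, SE 0.29, adjusted p = 1.04e-08). Its near-identical neighbour Hspa1a had 8.60 ± 0.485 CPM in KO and 31.6 ± 4.62 CPM in fl/fl (-1.88, SE 0.23). Reads without a unique alignment, 23.6 to 26.4% of the deposited counts, were not assigned to genes. Reads shared by Hspa1a and Hspa1b may thus be missing from both. The chaperone genes Hsph1 and Dnajb1 fell by 0.52 and 0.41. Of the immediate early genes, 5 rose. Fosb had 584 ± 10.6 CPM in KO and 343 ± 13.3 CPM in fl/fl (0.77, SE 0.05), and Jun 725 ± 24.7 CPM in KO and 501 ± 24.6 CPM in fl/fl (0.53, SE 0.05). Fos, Junb and Ier2 rose by 0.47, 0.44 and 0.45, while Egr1 at 0.14 and Myc at 0.30 were not called. Except for Hspa1b, Fosb and Jun, the genes of this list were named after their values were seen, and 3 rather than 5 were called higher with a GC content offset.

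**Figure D4:**
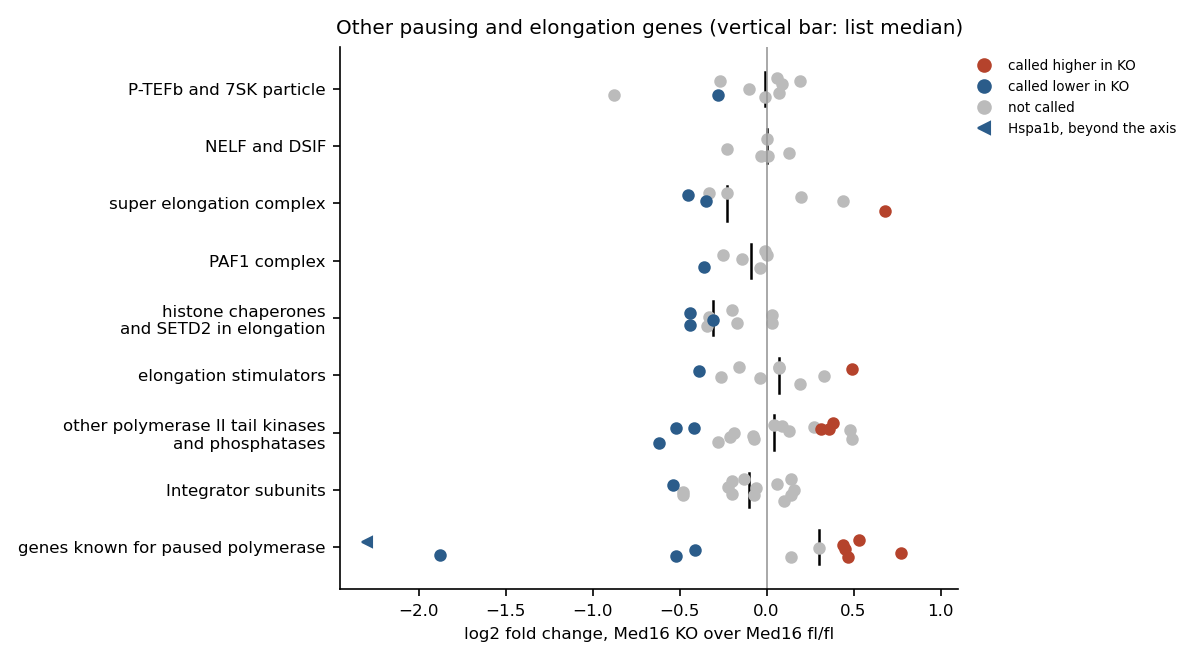
Log2 fold change of Med16 KO over Med16 fl/fl for 87 other genes in 9 lists. The last list holds genes known for paused polymerase, and the others genes with roles in pausing and elongation. Each point is a gene, coloured by whether it was called higher or lower in KO or was not called, and vertical bars are list medians. Points of the NELF and DSIF list lie between -0.23 and 0.13, and Hspa1b, at -4.95, is drawn as an arrowhead at the edge of the axis.

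The genes whose pattern over the 4 libraries was most like that of Ccnt2, the member with the smallest adjusted p, were found by the root mean square difference of centred log2 CPM, among 5923 other genes with a mean of at least 20 CPM. They were Donson (0.0078), Pcgf5 (0.0158), Ubp1 (0.0161), Mafg (0.0168) and Prnp (0.0168). Donson had 63.4 and 75.5 CPM in KO and 96.3 and 102 CPM in fl/fl, with a log2 fold change of -0.51, and the others had between -0.52 and -0.50. These fold changes near that of Ccnt2 follow from how the genes were picked. With 4 libraries in 2 genotypes, many genes can share such a pattern.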

How the data were processed

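The deposited files hold raw counts per gene and library, made by the authors from poly(A) libraries. The submitters' processing notes name build GRCm39 and the tools HTSeq 0.12.4, HISAT2 2.1.0, FastQC 0.11.7, HOMER and DESeq2. The annotation release and strand setting were not given in the sources used here. Rows that name no gene held 67.3 to 67.7% of the deposited counts and were left out. Genes passing filterByExpr were fitted on genotype with edgeR 4.0.16 (R 4.3.3; TMM scaling, quasi-likelihood test, Benjamini-Hochberg adjustment over 13052 genes), and a gene was called at an adjusted p under 0.05. The 4 libraries left 2 residual degrees of freedom, and the common biological coefficient of variation was 0.125. Ratios used an exact permutation test.

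Exon length, GC content and overlaps came from GENCODE annotation of GRCm38, matched by gene for 98.4% of genes tested. Alternatives were DESeq2 1.42.0 (test, and size factors in edgeR), library size only, no filter, offsets for GC content and transcript length, a replicate block, an assumed coefficient of variation of 0.2 and leaving out each library. From each list the 3 genes with the smallest adjusted p and the most abundant gene were named, with the 5 genes most like the member of smallest adjusted p. The members and lists were chosen with earlier results of these data known.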

Additional observations from a re-analysis of the deposited data

How the results depend on the processing

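With 2 libraries a genotype, the calls rested most on the spread assumed. With an assumed coefficient of variation of 0.2, 620 genes were called (331 higher and 289 lower, against 1109 and 1291), with 0 of the 10 members and 0 higher and 2 lower of the pathway lists. Leaving out 1 library gave 1158 to 3998 genes called, 454 to 1839 higher and 704 to 2172 lower. It gave 0 to 1 members higher, 1 to 4 lower, a members' median of -0.14 to 0.02, 6 to 12 list genes higher and 9 to 23 lower, and Med16 at -3.22 to -2.25. In these fits the lone library is assumed to vary like the other genotype's. The KO minus fl/fl difference was -0.202 to 0.196 in the Hexim1 to Cdk9 ratio and -1.54 to -0.715 in the cyclin T to Cdk9 ratio. A GC content offset gave 1 member lower, a members' median of -0.12 and 6 list genes higher, and library size alone a members' median of 0.03. Log2 fold changes that reversed, with no call in either direction, were Supt5 (-0.03) and Ints1 (-0.12) with the GC offset, Nelfe (-0.20 with GC, -0.09 with length, -0.14 to 0.20 without 1 library), Cdc73 (0.10 with GC, 0.01 with length), Ppp1cc (-0.02 with length, -0.06 to 0.11 without 1 library), Nelfcd (0.02 with library size alone), Trim33 (-0.09 to 0.35 without 1 library, lowest without fl/fl library 1), and Supt6 (0.04) and Ctr9 (0.09) without KO library 1; without KO library 2 Supt6 (-0.32) and Ctr9 (-0.72) were called lower. The cause was not tested. The labels share replicate numbers between genotypes, but same-numbered libraries did not deviate together (correlation -0.005). A replicate block gave 2767 genes called (1268 higher and 1499 lower) with 2 members lower. DESeq2 called 1808 genes. Intervals and floors cover counting and library spread only; 3 counts are 0.416 to 0.444 CPM.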
